A study of Homo sapiens with 6 samples.

Results

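The IL6 family of cytokines and its signalling chain were followed in A549 cells through 10 genes among the 57905 gene identifiers of the deposited table. The genes were the ligands IL11, IL6, LIF and CLCF1, the receptors IL6ST, OSMR and LIFR, the transcription factor STAT3, and the feedback inhibitors SOCS1 and SOCS3. The set was drawn up because IL11 stood higher with miR-19a in these data, so the values of IL11 describe the choice and carry no test. A549 is an established line of human lung adenocarcinoma cells. In 3 samples the cells had been transfected with miR-19a, and in 3 samples with a negative control microRNA (miR-NC). Both kinds were given at 25 nM with Lipofectamine 3000, harvest is stated as 24 h, and poly(A)-selected RNA was sequenced. The labels give neither the arm of the miR-19a duplex nor the sequence of the control. Nothing in the labels says that replicates came from separate cultures. The p-values therefore measure only how far these samples spread, and that spread may be technical.

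Cytokines of this family signal through IL6ST, also called gp130, a receptor chain that most of them share. IL6 and IL11 first bind their own receptor, IL6R or IL11RA, whereas LIF pairs IL6ST with LIFR, oncostatin M pairs it with OSMR or LIFR, and CLCF1 acts through CNTFR, LIFR and IL6ST. JAK kinases bound to these chains phosphorylate STAT3, which turns on genes that include its own inhibitor SOCS3. In lung epithelium and other epithelia the pathway is known for acute phase proteins, tissue repair and tumour growth.

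miR-19a lowers messenger RNAs that pair with its seed, and its mature sequences are shown because the seed defines the sites counted in the members. They are the RefSeq entries on GRCh38.p14, the 3p arm at chr13:91350939-91350961 and the 5p arm at chr13:91350904-91350925, both on the plus strand. Capitals mark the seed, bases 2 to 8. Sites below were counted for the 3p arm.
hsa-miR-19a-3p: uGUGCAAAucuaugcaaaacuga
hsa-miR-19a-5p: aGUUUUGCauaguugcacuaca

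In the 3′ UTRs of GENCODE v29 (GRCh38, the transcript with the longest coding sequence), 5 of the 10 members held a match of at least 7 bases to the miR-19a-3p seed. An 8mer pairs with bases 2 to 8 and has an A opposite base 1, a 7mer-m8 pairs with bases 2 to 8, and a 7mer-A1 pairs with bases 2 to 7 and has that A. The 5 sites are shown in the sense of the transcript with the match in capitals, each within 1 exon and each on the minus strand of the genome. They lie at chr5:38476471-38476478 for LIFR, chr5:55940827-55940833 for IL6ST, chr22:30241603-30241609 for LIF, chr16:11254530-11254537 for SOCS1 and chr17:78356850-78356857 for SOCS3. LIFR, SOCS1 and SOCS3 have the 8mer, and IL6ST and LIF the 7mer-m8.
LIFR: aagactaaaatacTTTGCACAcgt
SOCS1: tatacccagtatcTTTGCACAaac
SOCS3: atccaagtcaaacTTTGCACAtat
IL6ST: ctgtttcaggatgTTTGCACtga
LIF: acttttcactcacTTTGCACctt
OSMR and STAT3 held only a 6mer, with 1 and 2 matches, and the UTRs of IL11, IL6 and CLCF1 held no match. Of the 10552 genes with an annotated 3′ UTR among those tested below, 1969 held a 7mer or 8mer. UTR length was not allowed for, and those of LIFR and IL6ST had 6632 and 5987 bases. Nothing is read from the count of members with a site.

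The libraries held between 15699037 and 17957932 counts over genes. Pairs of libraries of one group differed by a chi-square per gene of 1.59 to 4.15, and pairs across the groups by 26.6 to 30.2. Epithelial markers fixed for the check summed to 1849 to 1930 FPKM with miR-19a and 1722 to 1755 FPKM with miR-NC, with 5 of 6 at a mean FPKM of at least 1 and EPCAM below it. The epithelial markers did not share a direction. The log2 fold changes with miR-19a were 0.28, 0.38 and 0.40 for KRT8, KRT18 and KRT19, and -0.28 and -0.17 for KRT7 and CDH1. None of the 5 markers of alveolar secretory cells reached 1 FPKM. Their sum was at most 0.10 FPKM with miR-19a and 0.16 FPKM with miR-NC. Fibroblast markers summed to 2.53 to 3.01 FPKM with miR-19a and 0.90 to 1.10 FPKM with miR-NC, with COL1A1 alone of 7 reaching 1 FPKM, and leukocyte markers to 1.51 to 1.93 FPKM with miR-19a and 1.11 to 1.49 FPKM with miR-NC, with CD14 alone of 6. The part of such cells in the results was not tested. In bulk RNA, fewer cells of a type and less RNA per cell cannot be told apart.

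The edgeR test covered the 12452 genes whose mean FPKM was 1 or more, and 48.4% of them passed an adjusted p of 0.05 in one direction or the other (24.9% higher and 23.5% lower with miR-19a). Of the 9 members other than IL11, 8 reached the filter, of which 6 rose, 1 fell and 1 did not pass. Since close to every second gene tested passed, nothing is read from this count. The median log2 fold change of those 8 was 0.34, beside -0.004 over all genes tested. The members were chosen with earlier results of these data known, so this median is a description with no test. The receptors OSMR, LIFR and IL6ST and the factor STAT3 rose, CLCF1 fell, and SOCS3 did not pass. CPM below are counts scaled to library size with TMM factors.

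**Figure D1:**
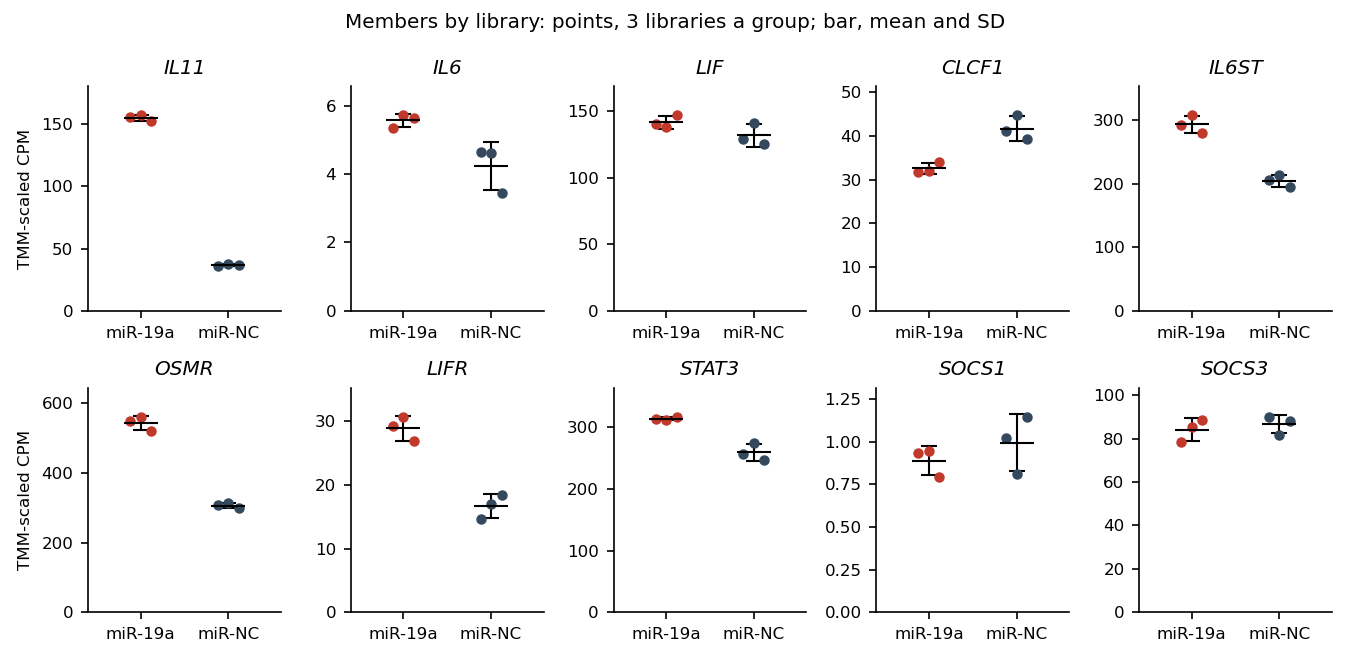
CPM of each of the 10 members, 1 panel per gene with its own axis from 0; points are the 3 libraries with miR-19a (left) and the 3 with miR-NC (right), and the bars are the mean ± SD. The groups stand apart for IL11, IL6, CLCF1, IL6ST, OSMR, LIFR and STAT3, and overlap for LIF, SOCS1 and SOCS3.

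Among the ligands, IL11 (ENSG00000095752, chr19:55364389-55370463, minus strand) stood at 155.2, 156.9 and 152.0 CPM with miR-19a, against 35.78, 37.92 and 36.95 CPM with miR-NC. IL11 is a cytokine best known for its roles in megakaryocyte formation and, more recently, in fibrosis. The means were 154.7 ± 2.50 CPM with miR-19a and 36.9 ± 1.07 CPM with miR-NC (SD, n = 3 each), a log2 fold change of 2.07 (SE 0.050) and 4.19-fold. The lowest miR-19a library lay far above the highest miR-NC library. By log2 fold change IL11 ranked 7th from the top of the 12452 genes, and 15th by absolute size. These values chose the list, so no p is given.

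IL6 (chr7:22725884-22732002, plus strand), the founding cytokine of the family, was scarce. It had 86, 97 and 100 counts with miR-19a and 77, 74 and 54 counts with miR-NC, which came to 5.35, 5.71 and 5.65 CPM with miR-19a and 4.64, 4.62 and 3.43 CPM with miR-NC. The groups did not overlap, and IL6 rose by a log2 fold change of 0.39 (SE 0.16, edgeR adjusted p = 0.0394). This call rests on few counts. It ended with DESeq2 (adjusted p = 0.103), with limma on log2(FPKM + 1) (0.0534) and with no filter (0.0536). It also ended when any one of miR-19a replicates 1 (0.0569), 2 (0.101) and 3 (0.0867) was left out. Leaving out miR-NC replicate 3, the library with the lowest IL6 value, gave a log2 fold change of 0.27 (adjusted p = 0.206).

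LIF (chr22:30240447-30246851, minus strand), leukemia inhibitory factor, had 140.1, 137.5 and 146.6 CPM with miR-19a and 128.9, 141.1 and 124.9 CPM with miR-NC. The second miR-NC library lay inside the range of the miR-19a libraries. The log2 fold change of LIF was 0.10 (SE 0.044, edgeR adjusted p = 0.0461), and this small rise did not pass with DESeq2 (adjusted p = 0.107), with limma on log2(FPKM + 1) (0.189) or with library totals alone (0.0949). It did not pass either when miR-19a replicate 1 (0.0847) or 3 (0.194), or miR-NC replicate 1 (0.162) or 3 (0.261), was left out.

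CLCF1 (chr11:67364168-67374177, minus strand), cardiotrophin-like cytokine factor 1, fell, and it was the only member called lower. It had 31.8, 31.9 and 34.0 CPM with miR-19a and 41.0, 44.7 and 39.2 CPM with miR-NC. Every miR-19a library lay below every miR-NC library, with a log2 fold change of -0.35 (SE 0.065, edgeR adjusted p = 4.7e-06). CLCF1 overlaps RAD9A on the other strand and another annotated gene on its own strand. With a strand setting not given in the sources used here, reads of CLCF1 may be mixed with theirs. IL6 and LIF likewise overlap genes on the other strand.

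Among the 3 receptor genes of the set, OSMR (ENSG00000145623, chr5:38845858-38945596, plus strand), the oncostatin M receptor chain, rose about as much as LIFR. Without miR-NC replicate 3 the log2 fold change was 0.81 for OSMR and 0.87 for LIFR, so they are not ranked. OSMR had 548.6, 560.3 and 519.9 CPM with miR-19a, against 306.3, 313.0 and 298.8 CPM with miR-NC. The groups were far apart relative to the spread within each. The log2 fold change was 0.83 (SE 0.038, edgeR adjusted p = 2.3e-29), 1.77-fold, with means of 542.9 ± 20.8 CPM with miR-19a and 306.0 ± 7.10 CPM with miR-NC (SD, n = 3 each).

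LIFR (chr5:38474963-38608354, minus strand), the receptor chain for LIF, had 29.2, 30.6 and 26.8 CPM with miR-19a, against 14.6, 17.0 and 18.4 CPM with miR-NC. The groups did not overlap, and LIFR rose by a log2 fold change of 0.79 (SE 0.082, edgeR adjusted p = 6.1e-13), 1.73-fold. The 8mer shown above did not go with a fall. Of the 639 tested genes with an 8mer, 633 had a lower log2 fold change than LIFR and 5 a higher one. LIFR overlaps the antisense gene LIFR-AS1.

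IL6ST (chr5:55935095-55994993, minus strand), the shared chain gp130, had 292.2, 307.0 and 279.6 CPM with miR-19a, against 205.3, 213.3 and 193.8 CPM with miR-NC. The groups were separate, and IL6ST rose by a log2 fold change of 0.52 (SE 0.040, edgeR adjusted p = 6.8e-18), 1.43-fold. Its 7mer-m8 again did not go with a fall, and of the 780 tested genes with a 7mer-m8 as the best match, 728 had a lower log2 fold change than IL6ST and 51 a higher one. IL6ST overlaps 3 annotated genes on the other strand.

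STAT3 (chr17:42313324-42388568, minus strand), which carries the signal of these receptors to the nucleus, had 314.2, 311.4 and 316.9 CPM with miR-19a, against 257.0, 273.8 and 247.1 CPM with miR-NC. The miR-19a libraries were close together and all above the miR-NC libraries. The log2 fold change was 0.28 (SE 0.039, edgeR adjusted p = 9.8e-09), 1.21-fold.

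Of the inhibitors, SOCS3 (chr17:78356778-78360077, minus strand), which blocks IL6ST and its kinases and is induced by STAT3, had 78.3, 85.5 and 88.5 CPM with miR-19a and 90.0, 81.8 and 87.9 CPM with miR-NC. The groups overlapped. Its log2 fold change of -0.04 (SE 0.050) did not pass (edgeR adjusted p = 0.53). SOCS1 (chr16:11254405-11256200, minus strand), an inhibitor of JAK kinases, lay under the filter with 15, 16 and 14 counts with miR-19a and 17, 13 and 18 counts with miR-NC. With so few counts a modest difference was not detectable at this depth, and under edgeR's wider filter the log2 fold change was -0.16 (SE 0.35, adjusted p = 0.748). Neither of these 8mer carriers had a called change. SOCS1 overlaps RMI2 on the other strand.

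In the whole table, 54.0% of the tested genes had groups that did not overlap in CPM. Among the 8 tested members other than IL11 there were 6, of which 5 were higher, beside 27.6% of all tested genes, and 1 was lower with miR-19a. IL6ST, OSMR, LIFR, STAT3 and CLCF1 passed under every alternative in which they were tested, whereas the calls of IL6 and LIF ended under the alternatives named beside them. Both calls also ended with limma on log2(FPKM + 0.1), at an adjusted p of 0.0587 for IL6 and 0.191 for LIF. The edgeR call of LIF ended as well with median-of-ratios factors (adjusted p = 0.0502) and with no filter (0.0536).

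Levels can be compared between genes only per length, for which the authors' FPKM values were used. With miR-19a OSMR was highest at 74.6 ± 2.89 FPKM, followed by IL11 at 57.1 ± 0.959 FPKM (SD, n = 3). STAT3 (35.2 ± 0.285 FPKM) and LIF (35.1 ± 1.144 FPKM) overlapped, as did IL6ST (31.1 ± 1.48 FPKM) and SOCS3 (30.4 ± 1.90 FPKM). CLCF1 stood at 16.2 ± 0.608 FPKM, LIFR at 2.40 ± 0.167 FPKM, IL6 at 2.02 ± 0.0737 FPKM and SOCS1 at 0.717 ± 0.0666 FPKM. The order with miR-NC differed mainly through IL11. OSMR was again highest at 42.5 ± 0.796 FPKM, then LIF (33.1 ± 1.97 FPKM), SOCS3 (31.6 ± 1.65 FPKM) and STAT3 (29.3 ± 1.39 FPKM), whose ranges overlapped from one to the next. IL6ST (21.9 ± 0.956 FPKM) and CLCF1 (20.9 ± 1.31 FPKM) overlapped, and IL11 came 7th at 13.8 ± 0.379 FPKM, against 2nd with miR-19a. IL6 (1.56 ± 0.248 FPKM) and LIFR (1.40 ± 0.161 FPKM) overlapped in miR-NC, and SOCS1 was lowest at 0.810 ± 0.141 FPKM.

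The FPKM of the 11 ligand genes of the family summed to 124.8, 125.5 and 128.1 with miR-19a and 75.1, 78.4 and 72.3 with miR-NC. The composition of the sum followed IL11, which was 45.3% ± 1.31 of it with miR-19a and 18.3% ± 0.754 with miR-NC (SD, n = 3 each). LIF was 27.9% ± 0.585 of the sum with miR-19a and 43.9% ± 0.967 with miR-NC, and CLCF1 12.8% ± 0.306 with miR-19a and 27.7% ± 0.628 with miR-NC. LIF was the ligand with the largest share in miR-NC and IL11 the one with miR-19a. Because the shares add up to the whole, those of LIF and CLCF1 move with the IL11 value that chose the list. EBI3 took 10.9% ± 0.427 with miR-19a and 6.77% ± 1.34 with miR-NC, and IL6 1.604% ± 0.0516 with miR-19a and 2.06% ± 0.273 with miR-NC. These are descriptions with no test, and messenger RNA shares say nothing of secreted protein.

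**Figure D2:**
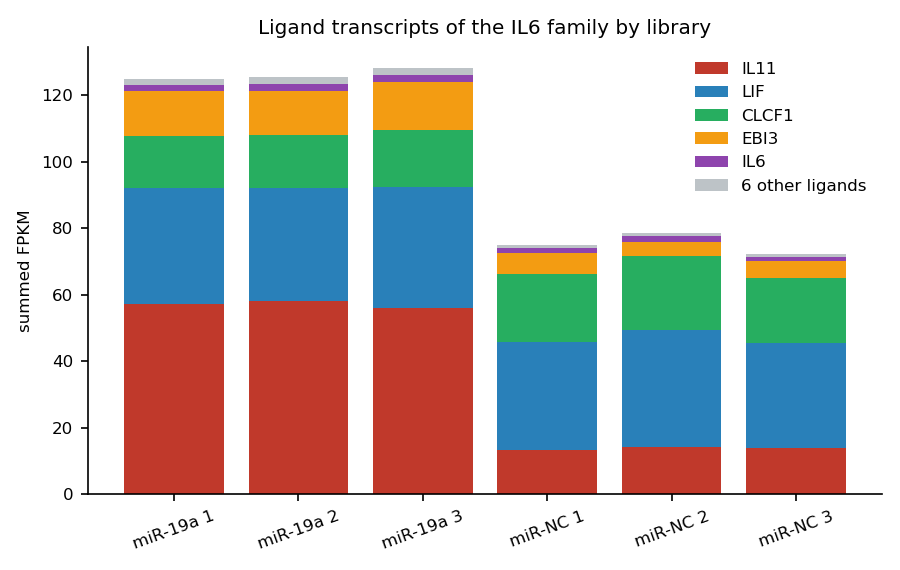
Authors' FPKM of the ligand genes of the family, stacked for each of the 3 libraries with miR-19a (left) and the 3 with miR-NC (right). The stacks reach 124.8 to 128.1 FPKM with miR-19a and 72.3 to 78.4 FPKM with miR-NC, and the IL11 layer makes up 43.8 to 46.2% of them with miR-19a and 17.8 to 19.2% with miR-NC.

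Of the 7 other ligand genes, EBI3 alone reached the filter. EBI3, a subunit of IL27 and IL35, had 17.5, 17.3 and 19.04 CPM with miR-19a, against 7.83, 5.50 and 6.30 CPM with miR-NC. The groups were far apart, and EBI3 rose by a log2 fold change of 1.45 (SE 0.11, edgeR adjusted p = 4.7e-18). Its partner in IL27 was at 0 to 2 counts in every library, and IL31 at 0 in all 6. Oncostatin M itself, OSM, the ligand of the abundant OSMR, had 1, 3 and 3 counts with miR-19a and 0 in each miR-NC library, which is at the limit of what was detectable.

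Among the other receptors, IL6R, the binding chain for IL6, rose to 40.8, 43.2 and 40.0 CPM with miR-19a, against 11.5, 11.9 and 15.9 CPM with miR-NC. IL6R had the largest log2 fold change among the receptors tested, 1.66 (SE 0.082, edgeR adjusted p = 2.3e-27). IL11RA, the binding chain for IL11, was scarce, at 7.65, 6.30 and 7.06 CPM with miR-19a and 5.78, 5.19 and 5.53 CPM with miR-NC. Its log2 fold change of 0.35 (SE 0.14) passed at an adjusted p of 0.0417, but not with DESeq2 (0.102). Leaving out any 1 library other than miR-19a replicate 2 also ended the call of IL11RA, with adjusted p from 0.0526 to 0.173. IL27RA, the receptor for IL27, differed by 0.29 on the log2 scale (SE 0.10, adjusted p = 0.019) with overlapping groups, and did not pass with DESeq2 (0.0758). It also did not pass with miR-19a replicate 1 (0.27) or 3 (0.0758), or miR-NC replicate 1 (0.0835), left out, and without miR-19a replicate 1 its log2 fold change was 0.16. All 3 receptor genes tested passed with edgeR, beside 48.4% of all genes tested. IL6R also passed under each alternative in which it was tested. IL31RA, under the filter, had 75, 86 and 81 counts with miR-19a and 39, 37 and 37 counts with miR-NC, with a log2 fold change of 1.03 under edgeR's wider filter (SE 0.19 and adjusted p = 9.9e-06). CNTFR, the binding chain for CLCF1, had at most 1 count in any library.

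The FPKM of IL6ST exceeded that of both binding chains in every library. The ratio of IL6ST to IL6R was 4.89, 4.85 and 4.77 with miR-19a, against 12.2, 12.3 and 8.32 with miR-NC. This ratio was lower in every miR-19a library. The ratio of IL6ST to IL11RA was 17.6, 22.3 and 18.2 with miR-19a and 16.3, 18.99 and 16.1 with miR-NC, with overlapping groups.

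The JAK and STAT genes moved in both directions. Of the 9 tested of 10, 3 rose, 5 fell and 1 did not pass, beside 24.9% higher and 23.5% lower over all genes tested. The median log2 fold change of the 9 was -0.17. JAK1, the kinase most used by IL6ST, rose by 0.18 (SE 0.038, edgeR adjusted p = 3.4e-05), with 318.4 ± 10.0 CPM with miR-19a and 280.2 ± 4.75 CPM with miR-NC. JAK2 fell by 0.21 (SE 0.081, adjusted p = 0.025), which no longer passed with DESeq2 (0.0747), or with miR-19a replicate 1 (0.195) or 3 (0.0523) or miR-NC replicate 2 (0.0736) left out. TYK2 differed by -0.02 on the log2 scale (SE 0.059, adjusted p = 0.792). The kinases shared no direction.

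Among the STAT factors, STAT2, which acts in type I interferon signalling, had 26.7, 28.9 and 23.95 CPM with miR-19a, against 30.4, 33.2 and 32.4 CPM with miR-NC. Every miR-19a library lay below every miR-NC library, the opposite of STAT3. STAT2 fell by 0.27 on the log2 scale (SE 0.072, edgeR adjusted p = 0.00111), and STAT6, which serves IL4 and IL13, by 0.24 (SE 0.046, adjusted p = 6.9e-06). STAT5A rose by 0.51 (SE 0.087, adjusted p = 1.2e-06), whereas its paralog STAT5B, with a 7mer-m8, fell by 0.17 (SE 0.051, adjusted p = 0.00315). Reads of these near-identical neighbours may have been split by the counting. STAT4 differed by 0.32 on the log2 scale (SE 0.13, adjusted p = 0.0324), a call that ended with DESeq2 (0.0843). The call of STAT4 also ended when any 1 library other than miR-19a replicate 3 was left out, with adjusted p from 0.0581 to 0.121.

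**Figure D3:**
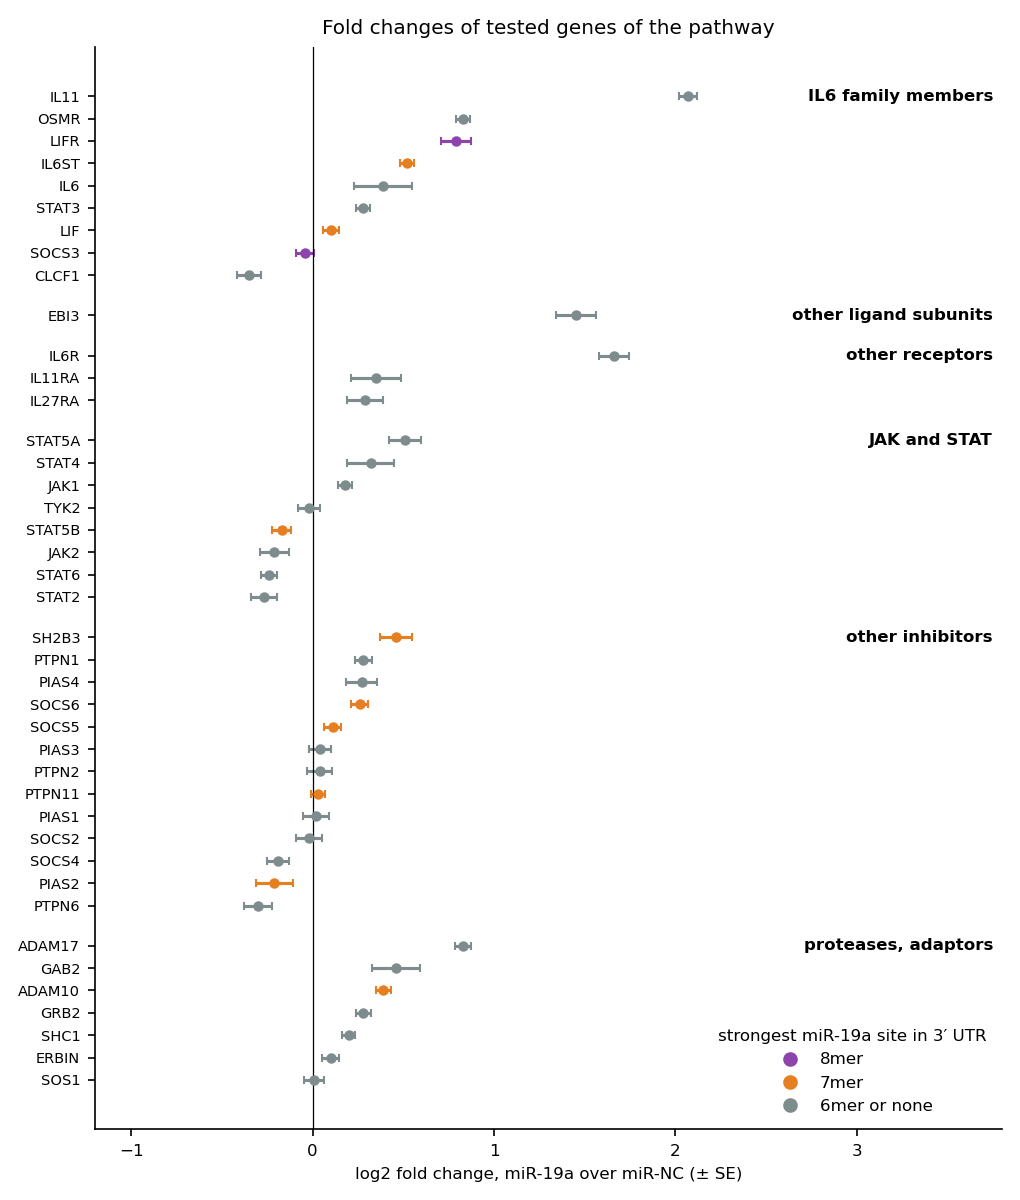
Log2 fold change of miR-19a over miR-NC (± SE, horizontal axis) for tested genes of the pathway, grouped by role from top to bottom and coloured by the strongest miR-19a site in the 3′ UTR; the vertical line is at 0. IL11 (2.07), IL6R (1.66) and EBI3 (1.45) lie farthest to the right, and CLCF1 (-0.35) and PTPN6 (-0.30) farthest to the left.

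Of the other inhibitors, 13 of the 15 with an identifier were tested, and 5 rose, 2 fell and 6 did not pass. Over all genes tested 24.9% were higher and 23.5% lower, so nothing is read from this count. The median log2 fold change of the 13 was 0.04. SH2B3, an adaptor that restrains JAK2, rose by 0.46 (SE 0.088, edgeR adjusted p = 8.1e-06) and its 3′ UTR holds a 7mer-A1. PTPN1, a phosphatase of JAK2 and TYK2, rose by 0.28 (SE 0.047, adjusted p = 5.7e-07). PIAS4, a SUMO ligase, had 0.27 (SE 0.083, adjusted p = 0.00556), which did not pass with miR-19a replicate 3 (0.171) or miR-NC replicate 3 (0.074) left out. The phosphatase PTPN6 fell by 0.30 (SE 0.079, adjusted p = 0.0012). SOCS4, whose known targets include the EGF receptor, fell by 0.19 (SE 0.060, adjusted p = 0.00664), which no longer passed with miR-19a replicate 3 left out (0.0596).

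Proteases and adaptors that act on these receptors were higher or did not pass. Of 7 tested of 8, 5 rose, 0 fell and 2 did not pass, beside 24.9% higher and 23.5% lower over all genes tested. The median log2 fold change of the 7 was 0.28. ADAM17, the protease that sheds IL6R from the cell surface, had 146.0, 146.1 and 138.3 CPM with miR-19a, against 80.7, 79.2 and 82.7 CPM with miR-NC. The log2 fold change of ADAM17 was 0.83 (SE 0.045, edgeR adjusted p = 3.0e-25). The receptor IL6R and its protease were both higher. ADAM10, a related protease, rose by 0.39 (SE 0.040, adjusted p = 4.9e-13) with a 7mer-m8 in its 3′ UTR, and the adaptor GAB2 by 0.46 (SE 0.13, adjusted p = 0.00166).

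Of 37 genes known as STAT3 targets, 26 were tested, and 15 rose, 7 fell and 4 did not pass, beside 24.9% higher and 23.5% lower over all genes tested. Their median log2 fold change was 0.42, beside -0.004 over all genes tested. The list was drawn up with earlier results of these data known, so the counts and the median are descriptions with no test. The largest rise was that of FGG, the gamma chain of fibrinogen and an acute phase gene of liver, with 45.0, 41.6 and 37.8 CPM with miR-19a, against 7.71, 7.12 and 7.57 CPM with miR-NC. Its log2 fold change was 2.47 (SE 0.088, edgeR adjusted p = 4.6e-35), and the alpha chain FGA rose by 1.67 (SE 0.067, adjusted p = 1.9e-32). SAA1, serum amyloid A, rose by 2.03 (SE 0.28, adjusted p = 7.4e-09) at a low level, 3.16 ± 0.444 CPM with miR-19a and 0.762 ± 0.262 CPM with miR-NC. The mean FPKM of SAA1 was 4.07 with miR-19a and 0.993 with miR-NC. SAA1 thus reached the filter only through the miR-19a libraries, and nothing is read from its call. SAA1 also shares most of its sequence with SAA2, so its reads are uncertain.

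Other known targets went the opposite way. TWIST1, a transcription factor of mesenchymal cells, fell by 0.79 (SE 0.23, edgeR adjusted p = 0.00241). Its level was low, 1.86 ± 0.347 CPM with miR-19a and 3.24 ± 0.376 CPM with miR-NC. The mean FPKM of TWIST1 was 0.903 with miR-19a and 1.59 with miR-NC. TWIST1 thus reached the filter only through the miR-NC libraries, and nothing is read from its call. The survival gene BIRC5 fell by 0.29 (SE 0.047, adjusted p = 5.5e-07), and HIF1A, the hypoxia factor, by 0.29 (SE 0.039, adjusted p = 3.2e-09) with a 7mer-A1. The list joins acute phase, proliferation and survival genes, many of which answer to other factors as well.

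Genes known to control IL11, those of TGF-beta signalling and of the AP-1 factors among them, moved in both directions. Of 14 tested of 17, 5 rose, 3 fell and 6 did not pass. Over all genes tested 24.9% were higher and 23.5% lower, so nothing is read from this count. The median log2 fold change of the 14 was 0.02. TGFBR1, the type I receptor for TGF-beta, had 104.2, 99.6 and 94.2 CPM with miR-19a, against 41.5, 46.4 and 45.3 CPM with miR-NC, a log2 fold change of 1.16 (SE 0.054, edgeR adjusted p = 6.7e-29). The ligand TGFB2 rose by 0.69 (SE 0.056, adjusted p = 4.6e-17) with a 7mer-m8, and the factor ATF3 by 1.06 (SE 0.085, adjusted p = 2.2e-17). On the other side, the type II receptor TGFBR2 fell by 0.21 (SE 0.042, adjusted p = 1.4e-05). The AP-1 subunit FOSL1 had 51.5, 50.9 and 53.9 CPM with miR-19a, against 91.6, 88.6 and 95.4 CPM with miR-NC, and fell by 0.82 (SE 0.052, adjusted p = 4.5e-22). ELAVL1, an RNA-binding protein that stabilises messenger RNAs with AU-rich elements, fell by 0.22 (SE 0.052, adjusted p = 3.8e-04). Of the 7 tested genes of this list with a 7mer-m8 as the best match, these 3 fell, TGFB2 rose, and SMAD2, SMAD4 and FOSL2 did not pass.

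**Figure D4:**
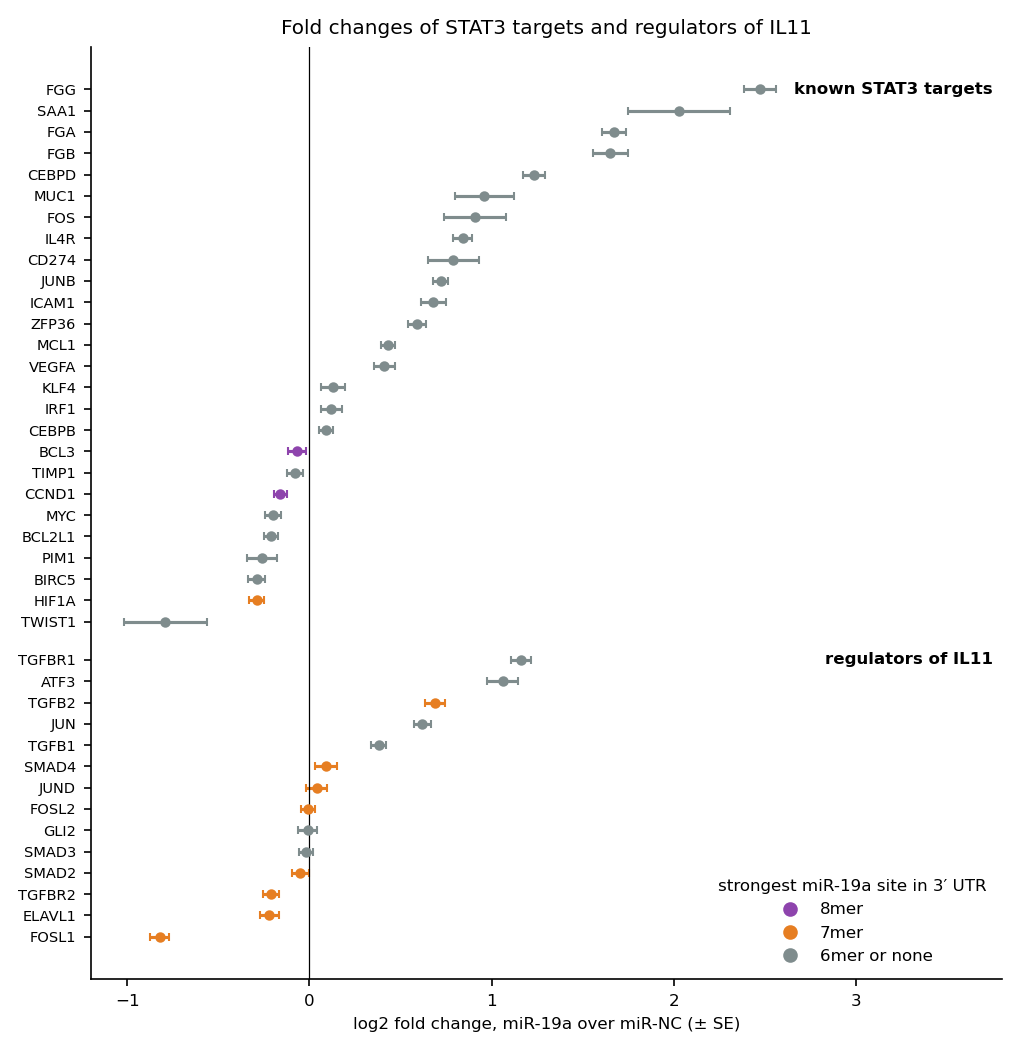
Log2 fold change of miR-19a over miR-NC (± SE, horizontal axis) for the tested known STAT3 targets (top) and regulators of IL11 (bottom), coloured by the strongest miR-19a site in the 3′ UTR. Of 26 targets, 15 rose and 7 fell, beside 24.9% higher and 23.5% lower over all genes tested. FGG (2.47) and TWIST1 (-0.79) are the extremes among the targets, and TWIST1 reached the filter only through the miR-NC libraries.

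The promoter windows of IL11 and OSMR are shown because each holds a match to the AP-1 motif TGANTCA, read on both strands. None of the 3 windows of LIFR held this motif, although its log2 fold change of 0.79 was close to the 0.83 of OSMR. The windows are RefSeq's on GRCh38.p14, 250 bases before to 50 after the gene start, chr19:55370414-55370713 on the minus strand for IL11 and chr5:38845762-38846061 on the plus strand for OSMR. Capitals mark the match. The N of the motif stands for any base, and that middle base is G in IL11 and T in OSMR, so the matches are not identical.
IL11: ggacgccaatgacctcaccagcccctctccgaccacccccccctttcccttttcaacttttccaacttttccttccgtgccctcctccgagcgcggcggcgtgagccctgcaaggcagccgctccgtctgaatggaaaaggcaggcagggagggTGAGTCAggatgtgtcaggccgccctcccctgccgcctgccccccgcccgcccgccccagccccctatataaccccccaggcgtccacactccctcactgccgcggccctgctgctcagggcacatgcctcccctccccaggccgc
OSMR: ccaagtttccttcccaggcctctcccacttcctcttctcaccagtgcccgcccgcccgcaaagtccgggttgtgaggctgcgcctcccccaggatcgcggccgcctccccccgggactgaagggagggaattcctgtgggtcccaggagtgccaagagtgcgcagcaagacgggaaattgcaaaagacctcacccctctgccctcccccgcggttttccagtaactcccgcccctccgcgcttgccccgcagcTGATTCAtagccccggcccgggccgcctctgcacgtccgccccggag
The match begins 96 bases before the start in IL11, at position -96, and at position 4 after it in OSMR. The motif was in 7.71% of the 35116 promoter windows, and a match is a description, not a site of binding. The STAT motif TTCNNNGAA, found in 7.66% of windows, had a match in 2 of the 3 windows of LIFR and none in the third. Neither motif was found in the windows of IL6, IL6ST, STAT3, SOCS1 and SOCS3. The windows follow RefSeq starts, and those of SOCS3, LIFR and IL6 do not cover the outer GENCODE start of the gene. For SOCS3 the RefSeq starts are chr17:78360925 and chr17:78359667, and the GENCODE start is chr17:78360077. Bases around that GENCODE start were not searched, so a motif there would have been missed. LIF and CLCF1 had no entry.

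OSMR and LIFR lie 237.5 kb apart on chromosome 5 of GRCh38, and their log2 fold changes were 0.83 and 0.79. No other tested gene within 250 kb of OSMR passed as higher. RICTOR, a subunit of the mTORC2 kinase that overlaps OSMR on the other strand, fell by 0.28 (SE 0.058, edgeR adjusted p = 3.2e-05), the divergent transcript OSMR-DT had 0.32 (SE 0.24, adjusted p = 0.289), and FYB1 had 0.00 (SE 0.072, adjusted p = 0.995). IL31RA lies 12.2 kb from IL6ST, and SLC38A9, a lysosomal amino acid sensor in the neighbourhood of IL6ST, rose by 0.67 (SE 0.077, adjusted p = 2.1e-11).

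Among all tested genes, the profile of IL11 over the 6 libraries was most like that of SLC2A3, a glucose transporter, with a root mean square difference of 0.07 on the log2 scale. SLC2A3 had 155.6 ± 10.3 CPM with miR-19a and 38.4 ± 2.09 CPM with miR-NC. Next came LTB, lymphotoxin beta, at 0.15, SEMA7A, a membrane-anchored semaphorin, at 0.18, GXYLT1, a xylosyltransferase, at 0.20, and COL5A3, a collagen chain, at 0.23. The measure follows the size of the difference between the groups, since the libraries of a group lie close together. It is a description with no test.

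The fold changes of the members that hold a seed site can be set beside those of the whole table. Of all 639 tested genes with an 8mer, 99 were higher and 309 lower with miR-19a (median log2 fold change -0.15). For genes with any 7mer or 8mer the counts were 428 higher and 779 lower of 1969 (median -0.07), and for the 8583 with neither, 2532 higher and 1862 lower (median 0.02). None of the 4 tested members that hold such a site was called lower. LIFR and IL6ST rose, and SOCS3 did not pass. LIF was called higher at a log2 fold change of 0.10 with overlapping groups, a call that ended under several alternatives. Of the 639 genes with an 8mer, 403 had a lower log2 fold change than SOCS3. CLCF1, the only member that fell, has no match of any class. Over the pathway lists, 5 of 18 tested genes with a 7mer or 8mer rose and 6 fell (median -0.03), and 32 of 55 without one rose and 11 fell (median 0.28).

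**Figure D5:**
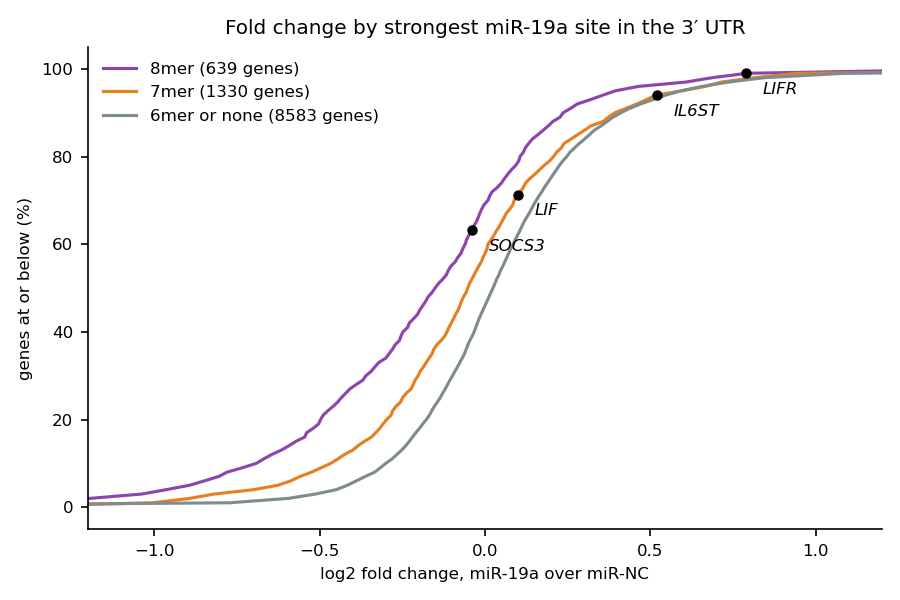
Cumulative share of tested genes (vertical axis) by log2 fold change of miR-19a over miR-NC (horizontal axis). The curves are for genes whose strongest site in the 3′ UTR is an 8mer, a 7mer, or a 6mer or none. SOCS3, LIFR, LIF and IL6ST are marked at their own values. The 7mer curve (1330 genes) joins 7mer-m8 and 7mer-A1. The 8mer curve (639 genes) lies to the left of the curve of 8583 genes without a 7mer or 8mer, and LIFR lies near the upper end of its class.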

How the data were processed

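RNA from 6 A549 samples was poly(A)-selected and sequenced in read pairs, per the labels' protocols. Per the submitters' processing notes, bcl2fastq 2.17.1.14 was used. Not given in the sources used here were the aligner, counter, strand setting, annotation and build. The deposited table holds a whole-number count and, per the file headers, an FPKM value for each of 57905 gene identifiers and library. The gene-names table gave a symbol for 51996 identifiers, GENCODE v29 for another 342, and 5567 stayed without. Of 138 list entries 2 had no identifier.

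The 12452 genes whose mean FPKM was 1 or more were tested on counts with edgeR 4.0.16 (R 4.3.3), quasi-likelihood, two-sided, TMM factors, Benjamini-Hochberg adjustment over all of them. Standard errors are the size of the log2 fold change divided by the root of F. The common biological coefficient of variation was 0.0352. The test was also run on simulated counts with a common dispersion, in which few genes changed, as many up as down. In these data 48.4% of the tested genes passed, so that run does not check the error rate under so wide a change. Coordinates, 3′ UTRs and overlaps come from GENCODE v29 and microRNAs and promoters from RefSeq, not from the deposited table.

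The members and lists were chosen with earlier results of these data known. Named are the members, each tested ligand, receptor, JAK and STAT gene, up to 3 rising and 3 falling genes of each other list by size of log2 fold change, the 5 genes most like IL11, and, chosen after their values were seen, neighbours of receptors and list genes under the filter. Some genes that this rule takes in count in the list totals but are not reported here one by one. Alternatives were DESeq2 1.42.0, limma 3.58.1 on log2(FPKM + 1) and log2(FPKM + 0.1), median-of-ratios factors, library totals, edgeR's filterByExpr, no filter, a minimum of 5 FPKM, a replicate block, each library left out and the longest 3′ UTR. Total counts of 15699037 to 17957932 per library set the counting error, and scarce genes such as IL6 and SOCS1 are the least certain.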

Additional observations from a re-analysis of the deposited data

How the results depend on the processing

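No direction among the named genes that passed was reversed under any alternative run, whereas SOCS3, which did not pass, had a log2 fold change of 0.01 without miR-19a replicate 1. Over pairs of a tested list gene and a setting, 1115 kept their side of the threshold, 71 no longer passed and 7 newly passed. IL11 had a log2 fold change of 1.98 with limma on log2(FPKM + 1), beside 2.07 as reported and 2.05 to 2.09 with each library left out. The number of members other than IL11 that passed was 7 and lay between 5 and 7 with each library left out. Among other ligands the number was 2 with filterByExpr and 2 with no filter, beside 1, with more genes tested. Among other receptors it was 1 with DESeq2, 1 with either limma fit and 1 with the minimum of 5 FPKM, beside 3, and lay between 1 and 3 with each library left out. Of the JAK and STAT genes 4 passed with the minimum of 5 FPKM, beside 8, with fewer genes tested.

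Samples with the same replicate number did not deviate together (correlations of -0.00442, 0.0094 and -0.0369), so the numbers are not taken to pair them. With a replicate block 7 members and 54 pathway genes passed, the same numbers as without it, and 3083 genes were higher and 2903 lower over the whole table. With library totals alone 2882 were higher and 3124 lower. Groups of 3 are too small for the search for outlying samples. IL6, SOCS1 and IL11RA had few counts, so depth limits what can be said of them. Genes that overlap on the other strand cannot be separated from these members.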

Other observations

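Other list genes under the filter, not used in the comparisons above, were scarce. SAA2 had 43, 35 and 26 counts with miR-19a, against 11, 5 and 8 counts with miR-NC. SERPINA1, the antitrypsin gene and an acute phase gene, had 60, 59 and 50 counts with miR-19a and 26, 40 and 18 counts with miR-NC, and LBP, which binds bacterial lipopolysaccharide, had 22, 29 and 26 counts and 9, 14 and 2 counts. Each of the 3 was higher in every miR-19a library than in every miR-NC library, beside 27.6% of all tested genes. They were named from 11 STAT3 targets under the filter after their values were seen, so nothing is read from this count. With edgeR's wider filter the log2 fold changes were 2.04 for SAA2 (adjusted p = 1.6e-06), 0.94 for SERPINA1 (adjusted p = 8.0e-04) and 1.54 for LBP (adjusted p = 5.8e-04). CRP, another acute phase gene, had 0 counts in each miR-19a library and 1, 0 and 3 counts in the miR-NC libraries. HP had at most 1 count in any library and HAMP had 0 counts in each miR-19a library and 1, 0 and 1 in miR-NC.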
